A study of Mus musculus with 6 samples.

Results

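The genes described here are 31 astrocyte-enriched genes, taken by symbol from a table of 23361 genes measured by RNA sequencing in whole mouse hippocampus. All 31 were in the table, and 30 of them passed the level filter of a mean of at least 1 FPKM, as did 12533 genes of the table. The gene under that filter was Chrdl1. FPKM is a fragment count scaled to transcript length and library size, so levels of different genes can be roughly set beside each other. Scaling of this kind leaves out GC content, with which a difference between libraries described below moved. The tested animals were Tet1Δe4-/- mice, which lack exon 4 of Tet1 on both alleles and are called Tet1-deficient below. They were compared with Tet1+/+ mice, called wild-type. The product of Tet1 is an enzyme of active DNA demethylation. Each genotype had 3 libraries, and the design text counts 3 mice of each. Every mouse of both genotypes received electroconvulsive shock through the ears (18 mA, 100 Hz, pulses of 0.2 ms for 1.15 seconds), which evokes a tonic-clonic seizure. Hippocampi were taken 1.5 to 2 hours later, so the values describe shocked tissue of both genotypes and unshocked tissue was not analysed here. Strain and age were not given in the sources used here. The title code of wild-type replicate 1 has an f where those of the other 5 libraries have an m, which the labels do not explain.

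Astrocytes are the glial cells that tile the hippocampus and wrap its synapses and vessels. They clear glutamate and potassium released by firing neurons, pass ions and metabolites to each other through gap junctions, and contact vessels with endfeet rich in water channels. They store glycogen, secrete lipoproteins and synapse-organising proteins, and enlarge their intermediate filaments after injury or seizures. In whole tissue, fewer astrocytes and less RNA per astrocyte cannot be told apart. Some of the genes are also transcribed elsewhere, such as Apoe and Cst3 in microglia, Clu in choroid plexus and Vim in vessel and meningeal cells.

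None of the 30 tested astrocyte genes passed the threshold for a genotype difference. That is 0 of 30, against 0.0319% of all tested genes, or 4 genes (limma with Benjamini-Hochberg adjustment over 12533 genes, adjusted p under 0.05, two-sided). By direction the count was 0 of 30 higher in Tet1-deficient mice, against 0.0239% of all tested genes, and 0 of 30 lower, against 0.00798%. At an unadjusted p under 0.05 the count was also 0 of 30, against 1.36% of all tested genes. It was 3 of 30 with estimated library weights (Ppp1r3g, Clu and Cldn10), against 9.83% of all tested genes in that fit. It was 1 of 30, Ppp1r3g, both with median-of-ratios scaling (1.34% of all tested genes) and without Tet1-deficient replicate 1 (1.39%). The median log2 difference, Tet1-deficient minus wild-type, was 0.02 over the astrocyte genes and 0.0055 over all tested genes. By sign 19 astrocyte genes were higher and 11 lower, against 52.9% higher among all tested genes. With median-of-ratios scaling 22 of 30 were higher, against 61.6% of all tested genes, and with quantile normalization 15 of 30, against 51.8%. Median-of-ratios scaling placed the median of all tested genes at 0.02. The largest absolute log2 difference among the 30 was 0.22, in Ppp1r3g. The 95% interval of the difference lay within ±0.5 for 24 of the 30 and within ±1 for all 30, so a log2 change of 1 in either direction lay outside every interval. The interval was widest for Aqp4, from −0.96 to 0.76. For 24 of the 30 the difference between the genotype means was smaller than the SD between libraries of 1 genotype, as it was for 86.3% of all tested genes.

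Tet1 itself measured 0.740, 0.685 and 0.638 FPKM in Tet1-deficient libraries and 0.977, 0.718 and 0.897 FPKM in wild-type libraries. The groups overlapped, and p was 0.2 by exact permutation of the libraries (two-sided), with 0.1 the smallest value 3 against 3 can reach. Summed over all exons, this level says nothing of whether exon 4 was lost. On the first principal component of the tested genes, which held 53.3% of the variance, replicate 1 of both genotypes lay apart from the other 4 libraries. Its scores were −27.9 in Tet1-deficient replicate 1 and −26.7 in wild-type replicate 1, and 10.5 to 15.5 in the others. Its place among the astrocyte genes is described after the genotype values. Read depth is unknown, because FPKM gives no counts, so no counting interval is given.

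Promoter windows of 5 astrocyte genes are shown because TET1 acts on CpG sites, and CpG-rich promoters are among its known binding regions. They are those of the pair whose libraries did not overlap between genotypes (Ppp1r3g and Ttyh1), of a gene high (Gja1) and a gene low (Hepacam) in replicate 1 of both genotypes, and of the astrocyte marker Gfap. Each window is RefSeq sequence of build GRCm38.p6, from 250 bases before to 50 bases after an annotated start, written 5′ to 3′ on the gene's strand. Capitals mark CpG sites. The windows are chr13:35967656-35967955, plus strand for Ppp1r3g, chr7:4119280-4119579, plus strand for Ttyh1, chr10:56377050-56377349, plus strand for Gja1, chr9:37367356-37367655, plus strand for Hepacam and chr11:102897151-102897450, minus strand for Gfap.
Ppp1r3g: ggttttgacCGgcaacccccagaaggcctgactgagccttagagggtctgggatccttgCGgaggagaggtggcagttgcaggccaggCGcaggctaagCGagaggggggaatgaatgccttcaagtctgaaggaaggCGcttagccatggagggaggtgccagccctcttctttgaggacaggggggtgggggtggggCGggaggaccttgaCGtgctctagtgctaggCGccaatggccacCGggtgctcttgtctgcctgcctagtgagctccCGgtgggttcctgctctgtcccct
Ttyh1: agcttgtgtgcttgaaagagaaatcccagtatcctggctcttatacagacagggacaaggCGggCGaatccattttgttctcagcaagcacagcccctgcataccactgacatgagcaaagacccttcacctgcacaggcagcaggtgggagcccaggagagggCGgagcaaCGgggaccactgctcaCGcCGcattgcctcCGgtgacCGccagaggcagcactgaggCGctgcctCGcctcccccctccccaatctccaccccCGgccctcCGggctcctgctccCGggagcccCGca
Gja1: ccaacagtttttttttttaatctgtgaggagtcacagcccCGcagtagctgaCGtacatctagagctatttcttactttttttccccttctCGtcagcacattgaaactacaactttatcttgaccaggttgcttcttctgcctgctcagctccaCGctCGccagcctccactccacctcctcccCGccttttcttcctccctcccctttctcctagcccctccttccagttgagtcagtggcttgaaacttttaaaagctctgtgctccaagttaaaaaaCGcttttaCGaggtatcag
Hepacam: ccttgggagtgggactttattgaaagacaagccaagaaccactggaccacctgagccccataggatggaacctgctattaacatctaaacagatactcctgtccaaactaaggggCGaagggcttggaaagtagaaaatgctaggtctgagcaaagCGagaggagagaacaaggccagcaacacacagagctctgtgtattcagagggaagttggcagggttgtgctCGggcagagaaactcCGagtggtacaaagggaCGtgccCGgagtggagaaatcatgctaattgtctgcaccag
Gfap: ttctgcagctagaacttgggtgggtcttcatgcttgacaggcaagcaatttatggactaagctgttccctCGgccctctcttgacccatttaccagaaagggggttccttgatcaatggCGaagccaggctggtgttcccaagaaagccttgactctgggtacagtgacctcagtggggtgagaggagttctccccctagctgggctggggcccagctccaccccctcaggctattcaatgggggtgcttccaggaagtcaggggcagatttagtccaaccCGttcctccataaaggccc

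The Ttyh1 window held 14 CpG sites, that of Ppp1r3g 10, that of Gja1 8, that of Hepacam 6 and that of Gfap 3. Each of these windows held fewer CpG sites than the median of 21 in windows of all genes in the tested set. All 32851 RefSeq windows of this length had a median of 7. Of these, 63.7% had fewer CpG sites than Ttyh1, 56.5% fewer than Ppp1r3g and 51.4% fewer than Gja1. For Hepacam the share was 43.6% and for Gfap 23.3%. Windows on chromosome 18, which holds Aqp4 and Slc14a1, were not used. Elsewhere windows were found for 24 of the 31 genes, 30 windows in all, since several genes have more than 1 annotated start. Their CpG number ran from 1 in Slc1a2 to 50 at 1 of the starts of Slc4a4, with a median of 8.5, against a median of 21 in windows of all genes in the tested set. Slc1a2 and Slc4a4 had log2 genotype differences of 0.12 and 0.05, and neither passed the threshold. The other window of Slc4a4 held 3 CpG sites, and the Slc1a2 window lay at a start inside the annotated gene. The whole windows of Ppp1r3g, Hepacam, Gfap and Aldh1l1, among others, also lay inside the annotated gene. The start of the Mlc1 window was 454 bases from the nearest GENCODE start. Bases 6 to 25 of an annotated transcript of the gene were found in 26 of the 30 windows. Any relation of CpG number to the genotype differences was not tested. 4 motifs were searched on both strands, each on its own. Matches to TTCNNNGAA, the core to which STAT factors bind, were found in 5 of the 30 windows (16.7%, against 8.30% of all windows), in Acsbg1, Aldoc, Gfap, Ntsr2 and Slc1a3. A match to TGANTCA, the core to which AP-1 factors bind, was found in 1 window, that of Gja1 (3.33%, against 7.81% of all windows). TATAAA, the TATA box, was found in 4 (13.3%, against 13.6%), and the full NFI palindrome in 0 (against 0.0365%). A match is a description of the letters only.

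Mean levels over the 6 libraries ran from 0.957 FPKM for Chrdl1 to 1316 FPKM for Apoe. Apoe, the main lipoprotein of astrocytes, and Cst3, a secreted inhibitor of cysteine proteases, were the most abundant. Of the 30 tested genes, 27 lay above the median level of all tested genes. The other 3 were Sox9, Slc14a1 and Ppp1r3g, at the percentiles 43.7, 35.8 and 35.3. Gfap stood at the percentile 96.8 and Slc1a2 at 98.9. The labelled tissue thus contained abundant RNA of astrocyte genes in all 6 libraries, next to that of neurons and the other cells of the hippocampus.

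**Figure D1:**
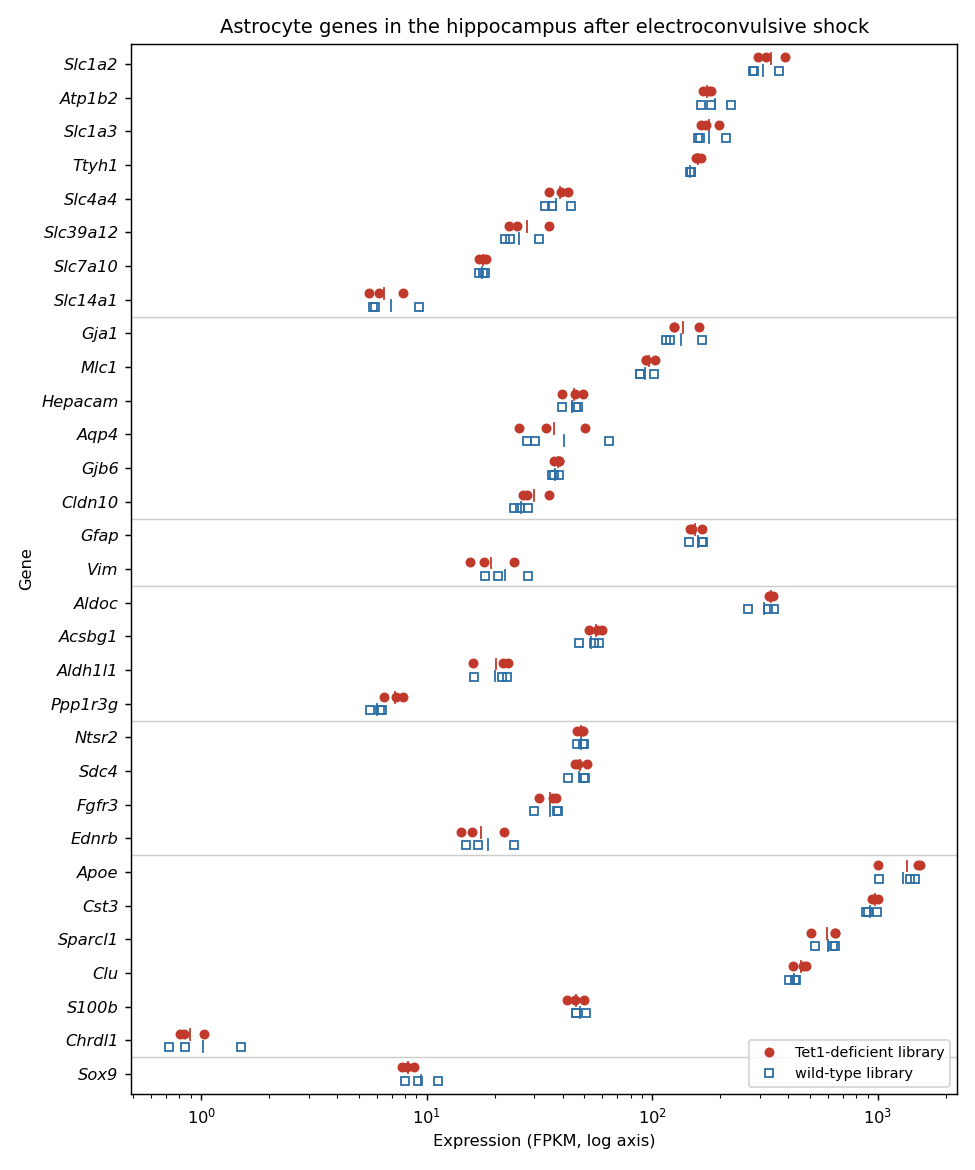
Expression of the 31 astrocyte genes in each library, in FPKM on a log axis, grouped by role. Filled circles are the 3 Tet1-deficient libraries, open squares the 3 wild-type libraries, and vertical ticks the group means; the ranges of the genotypes overlap for every gene except Ppp1r3g and Ttyh1.

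Among genes for transport of glutamate, other amino acids and ions, 6 of 8 were higher and 2 lower by sign. Of all tested genes 52.9% were higher. The threshold was passed by 0 of 8 (0.0319% of all tested genes). Slc1a2, which encodes the transporter that takes up most synaptic glutamate, had 388, 320 and 295 FPKM in Tet1-deficient libraries and 364, 278 and 283 FPKM in wild-type libraries. Replicate 1 was the highest of its genotype in both groups, and the groups overlapped. The means were 334 ± 47.9 and 308 ± 48.4 FPKM (SD, n = 3), a log2 difference of 0.12 (SE 0.149, 95% interval −0.24 to 0.47, adjusted p = 1.00 in limma). It was 0.0068 without Tet1-deficient replicate 1 and 0.24 without wild-type replicate 1. Slc1a3, the other glial glutamate transporter gene, had 197, 172 and 164 FPKM in Tet1-deficient and 212, 159.6 and 163 FPKM in wild-type libraries. Its means were 178 FPKM in both groups, with a log2 difference of 0.0050 (95% interval −0.32 to 0.33).

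Ttyh1 belongs to a family described as chloride channels opened by swelling. It was 1 of the 2 astrocyte genes whose libraries did not overlap between genotypes, against 4.13% of all tested genes. Both lay higher in Tet1-deficient mice, and 0 of 30 lay lower without overlap, against 2.21% of all tested genes. It measured 164, 157 and 157 FPKM in Tet1-deficient libraries and 148, 148 and 147 FPKM in wild-type libraries. The wild-type libraries lay closer together than the Tet1-deficient ones (159 ± 4.26 and 148 ± 0.525 FPKM, SD, n = 3). The log2 difference was 0.11 (SE 0.0761, unadjusted p 0.192, adjusted p = 1.00 in limma), and it ran from 0.08 to 0.13 over all alternatives. Exons of 9430041J12Rik and D030047H15Rik lie on the opposite strand of Ttyh1, and without a stated strand setting their reads cannot be told apart. The same holds for Slc1a2 with Gm13872, Slc7a10 with Lrp3, Aldh1l1 with Gm15756 and Fgfr3 with G630022F23Rik. Aldh1l1 also overlaps exons of Gm45901 on its own strand, where a strand setting would not separate the reads.

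The remaining transport genes overlapped between the genotypes. Atp1b2, a beta subunit of the sodium-potassium pump, had 178, 181 and 167 FPKM in Tet1-deficient and 223, 164 and 182 FPKM in wild-type libraries, so that wild-type replicate 1 stood above the other 5. Slc4a4, a sodium bicarbonate cotransporter gene, had 42.4, 39.4 and 34.7 FPKM in Tet1-deficient and 43.5, 33.3 and 35.7 FPKM in wild-type libraries. Slc39a12, of a family of zinc importers, had 34.9, 25.1 and 23.1 FPKM in Tet1-deficient and 31.5, 23.3 and 22.2 FPKM in wild-type libraries. In both of these genes replicate 1 was the highest of each genotype. Slc14a1, which encodes a urea transporter, had 7.81, 6.11 and 5.53 FPKM in Tet1-deficient and 9.25, 5.88 and 5.77 FPKM in wild-type libraries. Slc7a10, a carrier of small neutral amino acids such as serine and glycine, was steady across libraries, with 18.4, 17.0 and 17.8 FPKM in Tet1-deficient and 17.1, 17.7 and 18.2 FPKM in wild-type libraries.

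Of 6 genes of gap junctions and the endfoot membrane, 5 were higher and 1 lower by sign (52.9% of all tested genes were higher). The threshold was passed by 0 of 6 (0.0319% of all tested genes). Gja1 and Gjb6 encode the main astrocyte connexins. Gja1 had 161, 125 and 124 FPKM in Tet1-deficient libraries and 166, 119 and 115 FPKM in wild-type libraries, with replicate 1 well above the others in both groups. Gjb6 had 38.5, 38.7 and 36.8 FPKM in Tet1-deficient and 36.7, 36.0 and 38.5 FPKM in wild-type libraries and showed no such separation. The log2 differences were 0.05 (95% interval −0.37 to 0.46) for Gja1 and 0.04 (−0.16 to 0.23) for Gjb6.

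Aqp4, the endfoot water channel gene, had the widest interval of the 30. It measured 50.1, 33.6 and 25.7 FPKM in Tet1-deficient libraries and 64.0, 30.1 and 27.8 FPKM in wild-type libraries. Replicate 1 of each genotype stood above the other 4 libraries, which ranged from 25.7 to 33.6 FPKM. The means of 36.5 ± 12.4 and 40.6 ± 20.3 FPKM (SD, n = 3) differed by less than that spread (log2 difference −0.10, SE 0.361). Without replicate 1 of both genotypes the log2 difference was 0.02. It was also positive without wild-type replicate 1 (0.27) and without Tet1-deficient replicate 3 (0.12), so the sign depended on single libraries.

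Mlc1 and Hepacam encode partner membrane proteins of astrocyte junctions. They took opposite positions in replicate 1. Mlc1 had 103, 93.9 and 93.5 FPKM in Tet1-deficient and 102, 88.5 and 88.3 FPKM in wild-type libraries, whereas Hepacam had 39.6, 49.4 and 45.2 FPKM in Tet1-deficient and 39.9, 45.6 and 46.9 FPKM in wild-type libraries. Cldn10, of the claudin family of junction proteins, had 34.9, 26.7 and 27.8 FPKM in Tet1-deficient and 28.2, 24.4 and 26.0 FPKM in wild-type libraries. The groups overlapped in all 3 genes, and the log2 differences were 0.06 for Mlc1, 0.02 for Hepacam and 0.17 for Cldn10 (unadjusted limma p 0.547, 0.894 and 0.218). Without Tet1-deficient replicate 1 the difference was 0.05 for Cldn10 and 0.02 for Mlc1.

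The intermediate filament genes, the usual marks of reactive astrocytes, did not pass the threshold. Gfap had 148, 166 and 150.2 FPKM in Tet1-deficient libraries and 165, 145 and 168 FPKM in wild-type libraries. The means of 155 ± 10.2 and 159 ± 12.6 FPKM (SD, n = 3) gave a log2 difference of −0.04, with a 95% interval from −0.28 to 0.19. Vim had 15.5, 24.3 and 17.9 FPKM in Tet1-deficient and 20.7, 18.1 and 28.0 FPKM in wild-type libraries, a log2 difference of −0.20 (95% interval −0.69 to 0.30). That difference was −0.03 without wild-type replicate 3 and −0.37 without Tet1-deficient replicate 2. Its highest libraries, Tet1-deficient replicate 2 and wild-type replicate 3, were also those with the highest summed level of 12 choroid plexus genes and 16 endothelial and mural genes. The choroid plexus sums were 82.5, 309 and 64.2 FPKM in Tet1-deficient and 86.3, 64.5 and 383 FPKM in wild-type libraries. The endothelial and mural sums were 74.2, 111 and 65.2 FPKM in Tet1-deficient and 109, 77.2 and 133 FPKM in wild-type libraries, and 11 meningeal fibroblast genes summed to 54.8, 66.8 and 43.5 FPKM in Tet1-deficient and 114, 45.6 and 111 FPKM in wild-type libraries. None of these marker genes was at 0 in all libraries, and their part in the Vim values was not tested.

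All 4 genes of metabolic enzymes were higher by sign (52.9% of all tested genes were higher). The threshold was passed by 0 of 4 (0.0319% of all tested genes). Ppp1r3g, which encodes a subunit that directs protein phosphatase 1 to glycogen, had the smallest unadjusted p of the 30. It measured 6.49, 7.30 and 7.88 FPKM in Tet1-deficient libraries and 5.58, 6.33 and 6.21 FPKM in wild-type libraries. Every Tet1-deficient library lay above every wild-type library. Groups that did not overlap in this direction were found for 1.91% of all tested genes. The means of 7.22 ± 0.698 and 6.04 ± 0.404 FPKM (SD, n = 3) gave a log2 difference of 0.22 (SE 0.101, 95% interval −0.02 to 0.46, unadjusted p 0.0652, adjusted p = 1.00 in limma). It ranked 216 of 12533 genes by unadjusted p. The difference ran from 0.17 to 0.29 over all alternatives, in which the adjusted p was at least 0.124.

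Of the other enzyme genes, Aldh1l1 and Acsbg1 showed the separation of replicate 1 in the opposite direction to Aqp4. Aldh1l1, whose folate enzyme is a widely used astrocyte marker, had 15.9, 22.9 and 21.8 FPKM in Tet1-deficient and 16.1, 21.5 and 22.6 FPKM in wild-type libraries. Acsbg1, an acyl-CoA synthetase gene, had 52.4, 59.7 and 56.6 FPKM in Tet1-deficient and 47.5, 55.2 and 57.9 FPKM in wild-type libraries. For Aldoc, a glycolytic aldolase gene, only wild-type replicate 1 was low, with 331, 329.7 and 342 FPKM in Tet1-deficient and 267, 324 and 346 FPKM in wild-type libraries. The log2 differences were 0.0065, 0.07 and 0.11 in that order. Without wild-type replicate 1 they were −0.14, −0.010 and −0.0040, so each sign turned when that library was left out.

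Of 4 receptor and surface protein genes, 1 was higher and 3 lower by sign (52.9% of all tested genes were higher). The threshold was passed by 0 of 4 (0.0319% of all tested genes). Ednrb, the endothelin B receptor gene, had 22.0, 15.9 and 14.2 FPKM in Tet1-deficient and 24.3, 16.8 and 14.9 FPKM in wild-type libraries, with replicate 1 the highest of each genotype. Fgfr3, a fibroblast growth factor receptor gene, had 31.4, 37.4 and 36.4 FPKM in Tet1-deficient and 30.0, 38.1 and 37.9 FPKM in wild-type libraries, with replicate 1 the lowest of each genotype. Ntsr2, a neurotensin receptor gene, was steady, from 46.6 to 49.3 FPKM in Tet1-deficient and from 46.4 to 49.9 FPKM in wild-type libraries. Sdc4, a heparan sulfate proteoglycan gene, ranged from 45.3 to 51.5 FPKM in Tet1-deficient and from 42.2 to 50.1 FPKM in wild-type libraries. The log2 differences of the 4 lay between −0.10 and 0.02.

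Among secreted and calcium-binding proteins, 3 of 5 tested genes were higher and 2 lower by sign (52.9% of all tested genes were higher). The threshold was passed by 0 of 5 (0.0319% of all tested genes). Apoe had 999, 1535 and 1502 FPKM in Tet1-deficient libraries and 1015, 1390.0 and 1455 FPKM in wild-type libraries. Replicate 1 of both genotypes had the lowest values, and the means of 1345 ± 300.2 and 1287 ± 238 FPKM (SD, n = 3) gave a log2 difference of 0.06 (95% interval −0.44 to 0.55). Sparcl1, which encodes a protein that promotes excitatory synapse formation, had 507, 642 and 642 FPKM in Tet1-deficient and 525, 645 and 632 FPKM in wild-type libraries. Clu, of the secreted chaperone clusterin, had 419, 478 and 467 FPKM in Tet1-deficient and 404, 430.0 and 434 FPKM in wild-type libraries. Cst3 ranged from 945 to 999 FPKM in Tet1-deficient and from 883 to 989.8 FPKM in wild-type libraries. S100b, of a calcium-binding protein that astrocytes also release, ranged from 41.8 to 49.9 FPKM in Tet1-deficient and from 45.8 to 50.9 FPKM in wild-type libraries. The log2 differences of these 5 genes lay between −0.06 and 0.10. Chrdl1, whose secreted product promotes maturation of synapses, had 1.03, 0.842 and 0.805 FPKM in Tet1-deficient and 1.50, 0.719 and 0.845 FPKM in wild-type libraries. In a fit without the level filter its log2 difference was −0.08.

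Sox9, which encodes a transcription factor of astrocyte identity, had 8.15, 7.74 and 8.74 FPKM in Tet1-deficient and 7.99, 9.19 and 11.2 FPKM in wild-type libraries. The groups overlapped through wild-type replicate 1. The log2 difference was −0.17 (SE 0.129, unadjusted p 0.222), and −0.27 without replicate 1 of both genotypes (unadjusted p 0.0562, both in limma). Without wild-type replicate 3 alone it was −0.06 (unadjusted p 0.657), and over all single libraries left out it ran from −0.28 to −0.06.

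**Figure D2:**
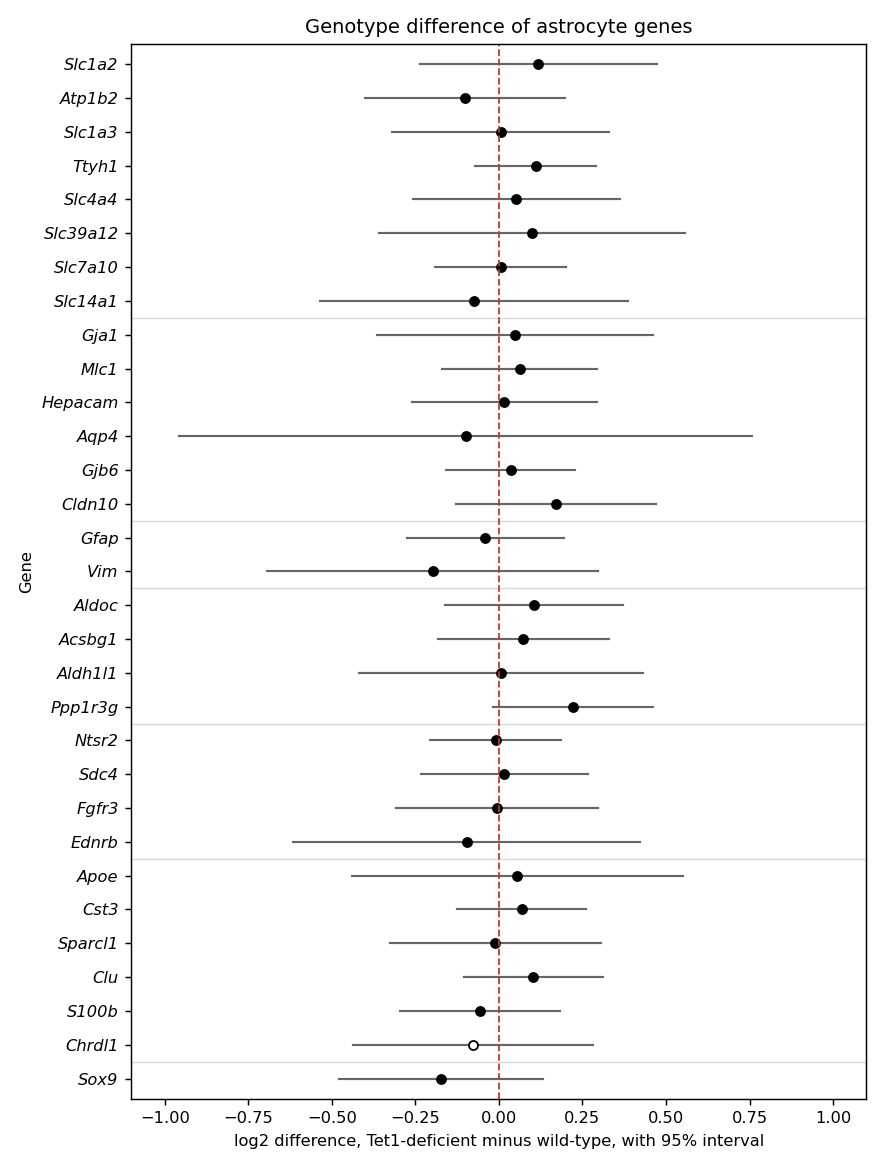
The log2 difference of each astrocyte gene, Tet1-deficient minus wild-type, with its 95% interval from limma, in the same order as the plot of levels. The interval of each of the 31 genes includes 0 (dashed line); the open circle is Chrdl1, which lay under the level filter.

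For 23 of the 30 tested astrocyte genes, replicate 1 of both genotypes differed from the other 4 libraries by more than the genotypes differed, as for 83.5% of all tested genes. This description has no test, since the libraries were set apart by a component that used the same values. In 12 of the 30 tested genes both of these libraries lay above the other 4, against 28.5% of all tested genes, and in 7 of 30 both lay below, against 35.0% of all tested genes. Either was the case for 19 of 30, against 63.5% of all tested genes. The 12 were Aqp4, Ednrb, Slc39a12, Slc14a1, Gja1, Slc1a2, Slc1a3, Slc4a4, Cldn10, Mlc1, S100b and Ntsr2, and Chrdl1 had the same order. The 7 were Apoe, Aldh1l1, Sparcl1, Fgfr3, Hepacam, Acsbg1 and Clu. The mean of replicate 1 over that of the other 4 libraries was 1.95 for Aqp4, 1.50 for Ednrb, 1.35 for Gja1 and 1.28 for Slc1a2. It was 0.685 for Apoe, 0.722 for Aldh1l1 and 0.806 for Sparcl1.

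These counts were as follows by role. Of the 8 transport genes 5 lay above and 0 below, and of the 6 gap junction and endfoot genes 4 lay above and 1 below. Of the 4 enzyme genes 0 lay above and 2 below, and of the 5 tested secreted and calcium-binding genes 1 lay above and 3 below. Summed over the transport genes, the level was 1030.2 FPKM in Tet1-deficient replicate 1 and 1048 FPKM in wild-type replicate 1, and 830.3 to 918 FPKM in the other 4. Summed over the secreted and calcium-binding genes it was 2941 and 2879 FPKM in the same libraries and 3416 to 3657 FPKM in the other 4. Of the 4 receptor and surface protein genes 2 lay above and 1 below. The mean deviation of the tested genes from their averages, in log2(FPKM + 1), was 0.04, 0.02 and −0.03 in Tet1-deficient and 0.04, −0.07 and −0.0024 in wild-type libraries.

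**Figure D3:**
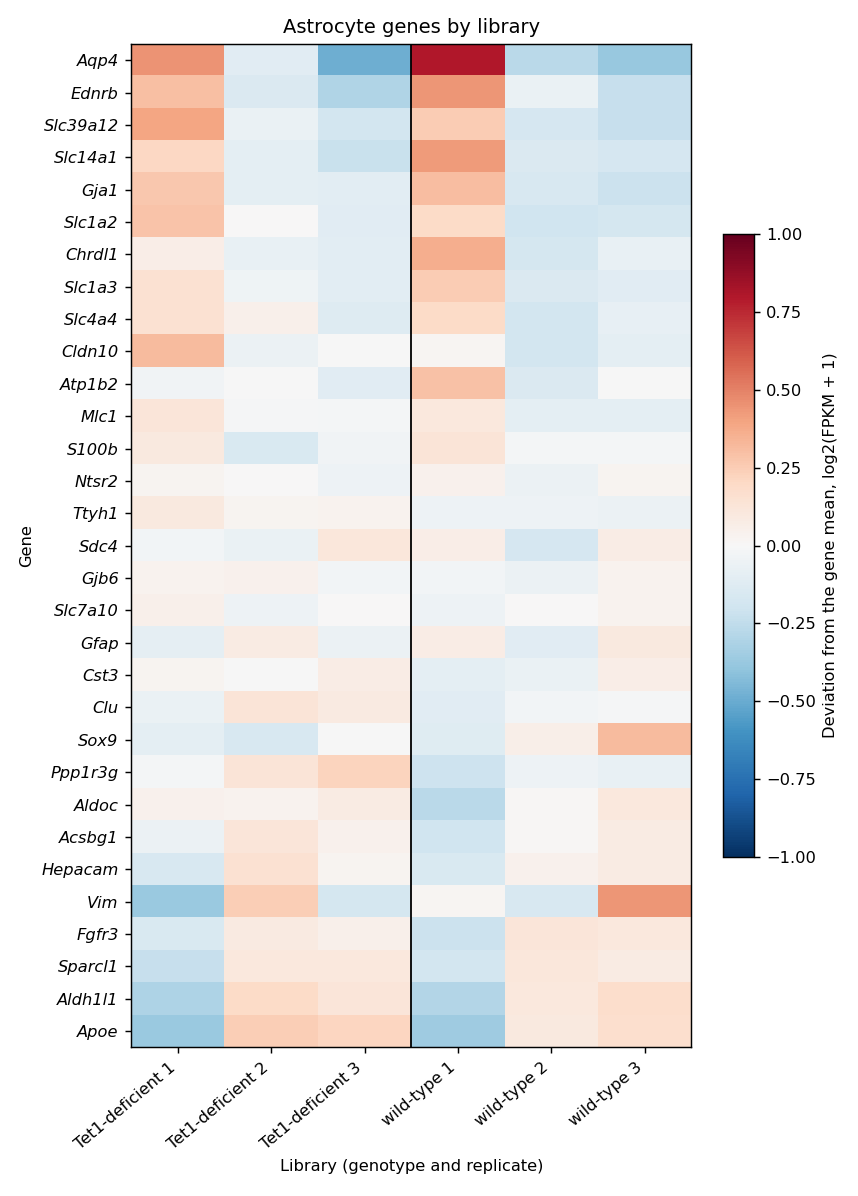
Deviation of each astrocyte gene from its mean over the 6 libraries, in log2(FPKM + 1), with Tet1-deficient libraries left of the line and wild-type libraries right of it. Genes run from the highest (Aqp4) to the lowest (Apoe) in replicate 1 of both genotypes relative to the other 4; replicate 1 is red in both genotypes at the top and blue at the bottom.

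Transcript GC content moved with this separation. The 12 genes above had a median GC content of 46.0% in their longest coding transcript, the 7 below 55.4% and the 11 others 52.4%. For all tested genes with an annotated coding transcript the medians were 44.0%, 55.4% and 50.1%. Across 11500 such genes the Spearman correlation between GC content and the log2 difference of replicate 1 from the other 4 libraries was −0.75, and across the 30 tested astrocyte genes it was −0.70. These are correlations across genes of the same 6 libraries, and genes are not independent replicates. Transcript length was less related to the separation, with Spearman correlations of 0.13 across the 11500 genes and 0.29 across the 30 tested astrocyte genes. Ntsr2, with 59.8% GC, and Sparcl1, with 48.2% GC, lay away from the common trend. The part of GC content in the levels was not tested. The genotype comparison holds 1 such library in each group. In the 4 other libraries alone, 0 of 30 astrocyte genes passed the threshold (0.0957% of all tested genes did), and 1, Ppp1r3g, had an unadjusted p under 0.05 (p 0.0173, log2 difference 0.24 in limma), against 3.86% of all tested genes. With the separation as a term in the model 0 of 30 passed (0.0638% of all tested genes did). The unadjusted p was under 0.05 for 3 of 30 astrocyte genes, against 6.77% of all tested genes. They were Ppp1r3g, Cldn10 and Ttyh1 (p 0.0056, 0.0224 and 0.0340 in limma, chosen for naming after their values were seen). The separation was drawn from the same expression values. The p-values with it as a term and in the 4 libraries alone are therefore descriptive only.

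**Figure D4:**
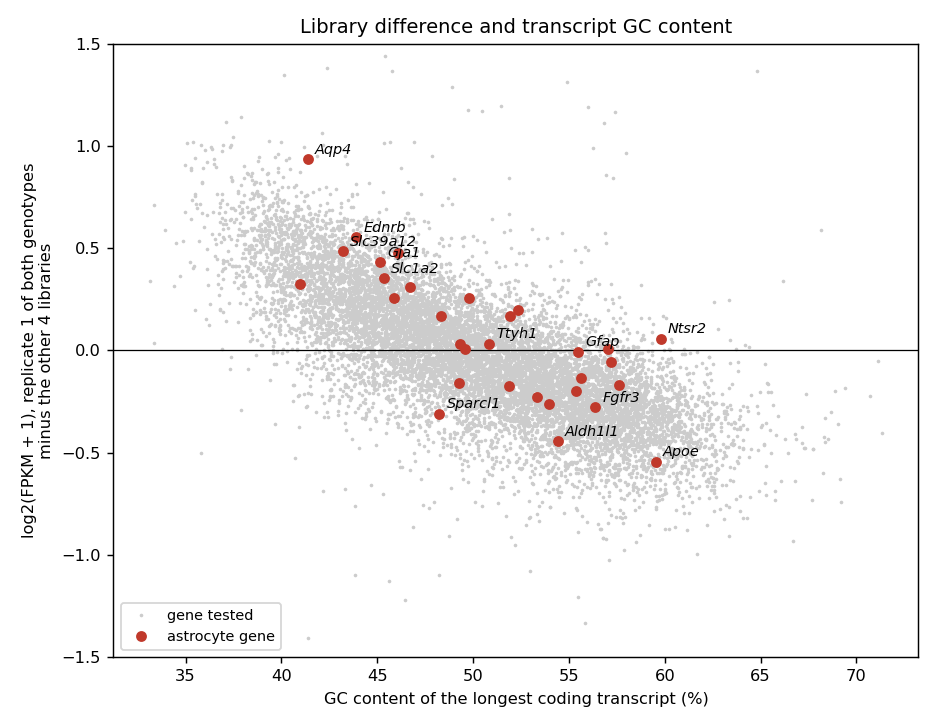
GC content of the longest coding transcript (%) against the log2(FPKM + 1) difference of replicate 1 of both genotypes from the other 4 libraries. Grey points are 11487 tested genes, with 13 more outside the vertical axis, and red points are the 31 astrocyte genes, which run from 0.93 for Aqp4 to −0.54 for Apoe along the same downward slope.

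A longer list of other astrocyte genes gave the same count. Of 69 genes 68 were tested, 36 higher and 32 lower by sign (52.9% of all tested genes were higher), and 0 passed the threshold. An unadjusted p under 0.05 was found for 3, against 1.36% of all tested genes. The groups did not overlap for 5 of 68, against 4.13% of all tested genes. These were Mt1 and Mt2, higher, and Gpc4, Slc25a18 and Paqr6, lower, of which Slc25a18 and Paqr6 are named after their values were seen. The median log2 difference was 0.01, beside 0.0055 for all tested genes. The 4 with the smallest unadjusted p were Mt2, Gpc4, Mt1 and Dio2. Mt2 and Mt1 encode metallothioneins, zinc-binding proteins of glia that respond to glucocorticoids, and their sequences are alike, so reads may be shared between them. Mt2 had 453, 515 and 453 FPKM in Tet1-deficient and 378, 399 and 351 FPKM in wild-type libraries, and Mt1 had 797, 831 and 837 FPKM in Tet1-deficient and 599.7, 755 and 644 FPKM in wild-type libraries. Every Tet1-deficient library lay above every wild-type library in both. Gpc4, of a secreted proteoglycan that promotes synapse formation, lay below in every Tet1-deficient library, with 12.3, 13.2 and 11.7 FPKM against 17.3, 15.0 and 14.5 FPKM in wild-type libraries. Dio2, the enzyme gene that activates thyroid hormone, had 37.0, 27.8 and 26.1 FPKM in Tet1-deficient and 30.0, 22.0 and 20.4 FPKM in wild-type libraries, and the groups overlapped. The log2 differences were 0.33 for Mt2, 0.31 for Mt1, −0.30 for Gpc4 and 0.32 for Dio2, and the adjusted p was 1.00 for each in limma.

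Of 42 listed genes of reactive astrocytes 21 passed the level filter, as did 12533 of the 23361 genes of the table. By sign 10 were higher and 11 lower (52.9% of all tested genes were higher). None passed the threshold, against 0.0319% of all tested genes, and 1 had an unadjusted p under 0.05, against 1.36%. Their median log2 difference was −0.02. Tnc, of an extracellular matrix protein, had 1.05, 1.40 and 1.38 FPKM in Tet1-deficient and 1.97, 1.66 and 1.69 FPKM in wild-type libraries. It was the 1 of 21 whose groups did not overlap, against 4.13% of all tested genes. Serpina3n, a protease inhibitor gene induced in reactive astrocytes, had 32.9, 36.4 and 69.4 FPKM in Tet1-deficient and 25.8, 33.6 and 30.7 FPKM in wild-type libraries, with Tet1-deficient replicate 3 far above the others. S1pr3, a sphingosine phosphate receptor gene, and Cd44, a hyaluronan receptor gene, stayed under 2 FPKM in every library and overlapped between the genotypes. The log2 differences were −0.29 for Tnc, 0.53 for Serpina3n, −0.25 for S1pr3 and −0.22 for Cd44 (unadjusted limma p 0.0312, 0.095, 0.0702 and 0.183, adjusted p = 1.00 each).

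Summed levels of other cell types set the context of these values. Over 19 neuronal genes the sum was 6553 to 6836 FPKM in Tet1-deficient and 6097 to 6637 FPKM in wild-type libraries, and over 15 microglial genes 223 to 238 and 229 to 241 FPKM in the same order. The 15 oligodendrocyte genes summed to 3323 to 4349.8 FPKM in Tet1-deficient and 3693 to 3929 FPKM in wild-type libraries, and the 31 astrocyte genes to 5126 to 5693 and 5047 to 5548 FPKM. The ranges of the genotypes overlapped in each of these lists. The 68 other astrocyte genes summed to 4797, 5046 and 4904 FPKM in Tet1-deficient and 4277, 4625 and 4547 FPKM in wild-type libraries, without overlap. Without Mt1 and Mt2, left out after their values were seen, the sums were 3546, 3699 and 3613 FPKM in Tet1-deficient and 3299.6, 3471 and 3552 FPKM in wild-type libraries and overlapped. No gene of the 9 lists of other cell types was at 0 in all libraries.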

How the data were processed

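Per the submitters' processing notes, reads were processed with TopHat2 2.0.9 and Cufflinks 2.1.1 on build mm10. The authors deposited gene-level FPKM with 1 column per library. The sources used here give no annotation, strand setting or filter. Among 362 genes under 0.03 FPKM in both libraries compared, at most 5 shared a ratio to 3 decimals, so no whole reads could be recovered and depth is unknown. FPKM sums ran from 371014 to 390042 per library.

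Genes whose mean over 6 libraries reached 1 FPKM were tested on log2(FPKM + 1) with limma 3.58.1 in R 4.3.3 (intensity trend, no covariate, two-sided, Benjamini-Hochberg over all genes, threshold 0.05). On this scale fold changes of low genes are understated. All differences are Tet1-deficient minus wild-type, and SE and intervals are limma's. The test was first run on simulated data, with noise drawn independently for each gene and no library separation. The planted changes were larger than any genotype difference among the astrocyte genes. That run therefore does not bear on differences of the size found here. Replicate numbers follow sample order and pair nothing. The design text counts 3 mice per genotype. A limma p-value sets the genotype difference against the spread between these libraries, after that spread is drawn toward that of genes of similar level. For a gene whose libraries lie unusually close together, SE and p therefore depend largely on other genes. GC content, length and overlaps come from GENCODE M21 on GRCm38, promoter windows from RefSeq.

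The astrocyte genes and gene lists were chosen with earlier results of these data known. All 31 genes, Tet1 and the 4 smallest p of each further astrocyte list are named. The alternatives were a pseudocount of 0.1, no filter, median-of-ratios and quantile scaling, no trend, library weights, a threshold of 0.1, the library separation as a term, each library left out and, added after seeing the data, 4 libraries alone.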

Additional observations from a re-analysis of the deposited data

How the results depend on the processing

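No astrocyte gene passed the threshold under any of the 15 alternatives, the lowest adjusted p being 0.124, for Ppp1r3g with library weights. The same count of 0 held for the lists of other and of reactive astrocyte genes, and the median log2 difference of the astrocyte genes ran from 0.00029 to 0.04. Over all genes, 4 passed; 59 passed with estimated library weights, 8 with the library separation as a term, 12 in the 4 libraries alone, and 0 to 6 when 1 library was left out. Log2 differences near 0 turned sign in some settings, none of them past the threshold, and the cause was not tested. With median-of-ratios scaling they were 0.015 for Fgfr3, 0.010 for Ntsr2 and 0.0098 for Sparcl1. With quantile normalization they were −0.035 for Slc1a3, −0.0027 for Slc7a10, −0.0013 for Hepacam and −0.0047 for Aldh1l1. With library weights they were −0.011 for Slc7a10, −0.0082 for Hepacam, 0.0070 for Sparcl1 and 0.00041 for Chrdl1. In the 4 libraries alone they were −0.042 for Slc7a10, 0.012 for Atp1b2, 0.025 for Aqp4, 0.020 for Gfap, 0.0085 for Sparcl1 and 0.034 for Chrdl1. With 1 library left out the difference ran from −0.071 to 0.13 for Slc1a3, −0.020 to 0.034 for Slc7a10, −0.027 to 0.16 for Slc4a4, −0.074 to 0.25 for Slc39a12, −0.075 to 0.21 for Gja1, −0.12 to 0.070 for Fgfr3, −0.10 to 0.10 for Sparcl1, −0.057 to 0.099 for Hepacam, −0.14 to 0.16 for Aldh1l1, −0.11 to 0.26 for Apoe, −0.12 to 0.0047 for S100b, −0.20 to 0.12 for Slc14a1, −0.35 to 0.27 for Aqp4, −0.041 to 0.013 for Ntsr2, −0.27 to 0.098 for Ednrb, −0.062 to 0.058 for Sdc4, −0.20 to 0.021 for Atp1b2, −0.0040 to 0.18 for Aldoc, −0.010 to 0.13 for Acsbg1 and −0.19 to 0.086 for Chrdl1. Among genes that kept their sign it moved by over 1.5 times from its value in all 6 libraries in 9. It ran from 0.0068 to 0.24 for Slc1a2, 0.016 to 0.13 for Mlc1, 0.014 to 0.063 for Gjb6 and 0.055 to 0.24 for Cldn10. The range was −0.11 to −0.0029 for Gfap, −0.37 to −0.028 for Vim, 0.035 to 0.12 for Cst3, 0.066 to 0.16 for Clu and −0.28 to −0.056 for Sox9. Ppp1r3g, from 0.17 to 0.29, and Ttyh1, from 0.088 to 0.12, moved less than that from their values in all 6 libraries. The log2 difference of Tet1 kept its sign in all alternatives. Depth is unknown, and 3 libraries per genotype limit the precision of every value. No paired analysis was possible because the title codes of the 2 genotypes share fewer than 2 numbers.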

Other observations

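Ratios of 3 pairs of astrocyte genes with related roles were computed after the values were seen. The ratio of Slc1a2 to Slc1a3, the glutamate transporter genes, was 1.96, 1.86 and 1.80 in Tet1-deficient libraries and 1.72, 1.74 and 1.73 in wild-type libraries. It was higher in 3 of 3 Tet1-deficient libraries than in any wild-type library, with means of 1.87 ± 0.0845 and 1.73 ± 0.0107 (SD, n = 3 each). By exact permutation (two-sided) p was 0.1, the smallest that 3 libraries against 3 allow, and 0.3 after Benjamini-Hochberg adjustment over the 3 pairs. The adjustment does not cover the choice of pairs, and the share of other gene pairs without overlap was not computed. The p-values of these ratios are therefore descriptive only. The ratio of the connexin genes Gja1 to Gjb6 was 4.19, 3.23 and 3.39 in Tet1-deficient and 4.51, 3.32 and 2.98 in wild-type libraries, highest in replicate 1 of each genotype (exact p = 1). The ratio of Gfap to Vim was 9.50, 6.85 and 8.38 in Tet1-deficient and 8.01, 8.02 and 6.002 in wild-type libraries (exact p = 0.4).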
